A study of Mus musculus with 12 samples.

Results

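Macrophage marker RNA was followed in cultures of mouse embryonic fibroblasts (MEFs), connective tissue cells grown out of embryos. The markers are 38 genes that macrophages are known for, taken as a list of names that was chosen with earlier results of these data known. Each was read by a probe set annotated to that gene alone, and all 38 were among the 19938 genes measured on the array. Affymetrix Mouse Gene 1.0 ST arrays, which carry short probes along each transcript, were used, with 1 array per sample and 12 samples in 4 groups of 3. S/S cells were homozygous for the S allele of Rb1, the gene of the retinoblastoma protein, and had a matched wild type (Rb1 +/+). L/L cells were homozygous for the L allele and had a wild type of their own. Each mutant with its wild type is called a set here, the S set and the L set, and the 2 wild types are called the S wild type and the L wild type. All 4 groups had been grown in medium with 10% fetal bovine serum up to passage 4 and then held in 0.1% serum for 72 h to stop division. What either allele alters in the protein is not given in the labels. Nor do they tell if samples within a group trace back to different embryos, and the p-values below therefore measure only the spread among these samples.

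Macrophages are phagocytes of the blood lineage. They seed the embryo from the yolk sac and fetal liver and persist in most tissues, where they clear dying cells and debris. Their survival depends on the growth factor CSF1, which fibroblasts secrete, acting through the receptor encoded by Csf1r, and their gene programme depends on the transcription factor PU.1, encoded by Spi1. A primary fibroblast culture made from embryo tissue can carry some of these cells along. In RNA from a whole culture, fewer macrophages and less macrophage RNA per cell cannot be told apart.

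Values are on the log2 scale, so a difference of 1 is a doubling in the reading of 1 gene, and levels are not compared between genes. Array medians ran from 6.85 to 7.01. As a reference for probe sets without much target, 1027 olfactory receptor genes were read on the same arrays, and the 95th percentile of their values, 6.16 to 6.70 from array to array, is called the floor. S wild-type array 1 stood apart, with an interquartile range of 3.10 against 3.39 to 3.60 on the other arrays. Array 1 of the L wild type and array 1 of L/L came from male cells: Eif2s3y, on the Y chromosome, read 9.09 to 9.15 there against 3.82 to 4.43 elsewhere, and Xist, made from the inactive X chromosome, read 5.06 to 5.41 against 10.37 to 11.48. Each L group therefore held samples of both sexes and so of more than 1 embryo, and how many is not known. Rb1 itself was read on all arrays, at 8.34 to 9.72. Fibroblast identity was clear on each array, since all 17 fibroblast markers measured lay above the floor in all 12 samples.

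Of the 38 macrophage markers, 25 lay above the floor on all 12 arrays, 12 on some of them, and Aif1, an actin-binding protein of macrophages and microglia, on none. The number above the floor per array was lowest in the 2 male arrays, at 27 in L wild-type array 1 and 28 in L/L array 1. It was highest, at 37, in L wild-type array 3 and in L/L array 2. In the S set it was 29 to 32 in the wild type and 35 to 36 in S/S. The count of 29 belongs to S wild-type array 1, where the floor was 6.70, against 6.16 to 6.31 on the other arrays. Macrophage transcripts were read in all 12 cultures, and their amount differed.

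A single figure per array, the macrophage level, was formed as the mean over the 38 genes of the log2 value minus that gene's mean over the 12 arrays. In the S wild type it was −0.31, −0.28 and −0.16. In S/S it was 0.42, 0.36 and 0.45, so the 3 mutant arrays lay above the 3 wild-type arrays, with a gap of 0.53 between the nearest of them. In the L wild type it was −0.82, −0.11 and 1.01, and in L/L it was −1.06, 0.34 and 0.15. Both extremes of the study therefore lay in the L set, the highest in a wild-type array and the lowest in a mutant array.

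The group means of the macrophage level were −0.25 ± 0.07 in the S wild type, 0.41 ± 0.04 in S/S, 0.03 ± 0.92 in the L wild type and −0.19 ± 0.76 in L/L (SD, n = 3 each). In order, S/S came first, followed by the L wild type, L/L and the S wild type. The last 3 of these did not differ beyond the SD of either L group. Within a group the highest array exceeded the lowest by 1.10-fold in the S wild type and 1.06-fold in S/S. The same ratio was 3.56-fold in the L wild type and 2.64-fold in L/L.

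**Figure D1:**
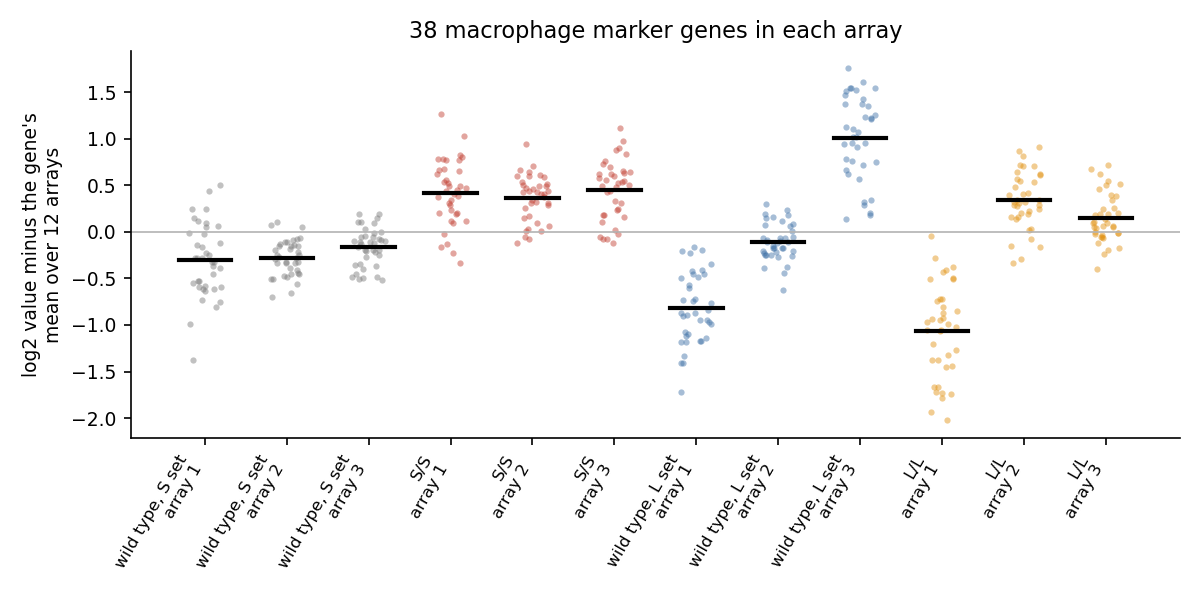
Log2 value minus the gene's mean over 12 arrays (vertical axis) for each of the 38 macrophage marker genes (points) in each array (horizontal axis), with the mean over the genes, the macrophage level, as a bar. The 3 S/S bars lie between 0.36 and 0.45 and the 3 bars of their wild type between −0.31 and −0.16, while the L set runs from −1.06 in L/L array 1 to 1.01 in wild-type array 3.

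The arrays at the ends differed from the rest in nearly the whole set of markers. In L wild-type array 3 all 38 genes lay above their own mean over 12 arrays. In L wild-type array 1 and in L/L array 1 all 38 lay below it. Among the 6 arrays of the L set, wild-type array 3 held the highest value of 38 of the 38 markers, against 15.7% of all genes. L/L array 1 held the lowest value of 32 markers, against 13.8% of all genes, and wild-type array 1 the lowest of 5, fewer than the 21.4% of all genes it held. Both low arrays are the male ones, and sex differs together with the macrophage level in this set. Its part in the level was not tested. Of the 4 female arrays of the L set, wild-type array 3 had a level of 1.01 and the others −0.11, 0.34 and 0.15. The 6 female arrays of the S set ran from −0.31 to 0.45.

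Gene by gene, the spread between samples of 1 group showed the same split. The SD over the 3 arrays of the L wild type had a median of 0.98 over the markers and 0.092 over all genes. In L/L these medians were 0.71 and 0.088. In both L groups nearly all markers were among the most variable genes of the array, 36 of 38 in the wild type and 34 of 38 in L/L lying above the 95th percentile of all genes. The S set was different. There the marker median was 0.17 against 0.22 for all genes in the wild type, and 0.19 against 0.14 in S/S. Only 1 of 38 markers in the S wild type and 3 in S/S lay above the 95th percentile. Pooled over the 4 groups, the marker median was 0.64 against 0.17 for all genes.

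**Figure D2:**
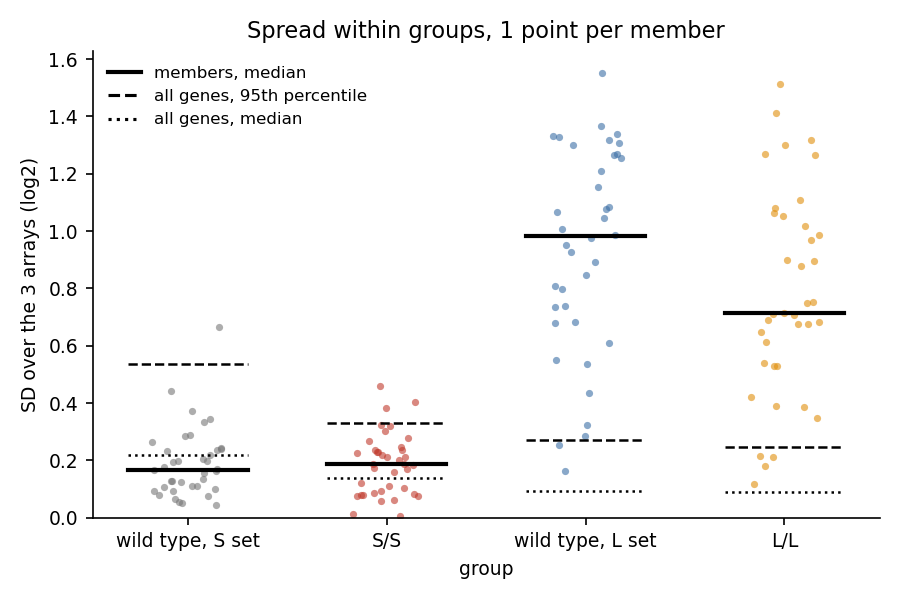
SD over the 3 arrays of a group, on the log2 scale (vertical axis), for each macrophage marker (points) in each of the 4 groups (horizontal axis). The solid bars, the marker medians, are 0.17, 0.19, 0.98 and 0.71 from left to right, and only in the 2 L groups do they lie above the dashed line, the 95th percentile of all genes.

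The markers also moved together from array to array. The correlation of each gene with the mean of the other members over the 12 arrays had a median Pearson r of 0.94 (Spearman rho 0.90), and 25 genes had an r over 0.9. Leaving out the 2 arrays with the most extreme levels left a median r of 0.89. These are descriptions over 12 arrays that share culture, RNA and hybridisation, not independent tests. The gene that followed the others best was Mpeg1 (r = 0.99), and 5 genes had an r under 0.7: Coro1a (0.68), Fcgr1 (0.67), Cx3cr1 (0.65), Aif1 (0.61) and Ccl4 (0.21). Of these 5, Aif1 was above the floor on no array, Fcgr1 on 5 arrays and Ccl4 on 6.

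**Figure D3:**
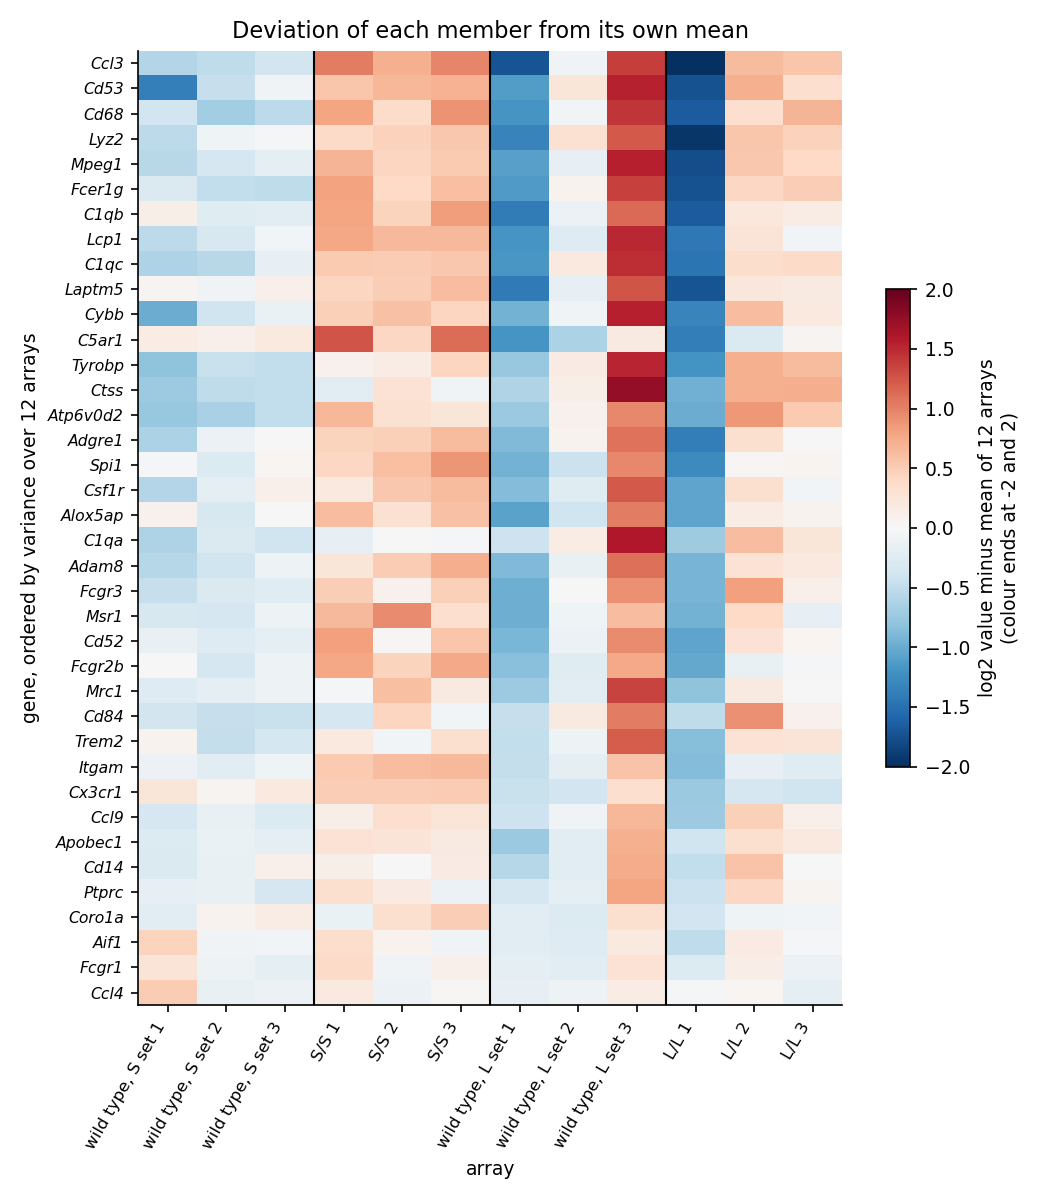
Deviation of each macrophage marker (rows, ordered by variance over 12 arrays) from its own mean, in log2 units by colour, in each array (columns, divided by group). L wild-type array 3 is red in all 38 rows, L wild-type array 1 and L/L array 1 are blue in all 38, and the 5 rows with the weakest link to the others lie near the bottom.

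The regulators of the lineage came first. Spi1, the gene of PU.1, is switched on early in blood development and is needed to make macrophages. It read 7.56, 7.31 and 7.61 in the S wild type and 7.99, 8.18 and 8.46 in S/S. In the L set it read 6.63, 7.14 and 8.54 in the L wild type and 6.31, 7.60 and 7.63 in L/L. The S/S values lay above those of their wild type without overlap, and in the L set the arrays of both genotypes ran through each other. Csf1r encodes the receptor for CSF1 and IL-34. It read 7.35, 7.75 and 8.04 in the S wild type and 8.13, 8.48 and 8.56 in S/S, and the groups did not overlap, although only by a small margin. In the L set Csf1r read 7.07, 7.69 and 9.17 in the L wild type and 6.89, 8.26 and 7.88 in L/L, with the peak in wild-type array 3. The ligand gene Csf1 had a narrower range, 1.47-fold over the 12 arrays. It read 10.74, 10.86 and 10.88 in the S wild type and 11.05, 10.94 and 11.05 in S/S, again without overlap, with a difference of 0.18 that did not pass (SE 0.10, adjusted p = 0.528 in limma). The L arrays, at 10.49 to 10.68, all lay below those of the S set. The other ligand gene, Il34, went the opposite way in S/S, by −0.27 (SE 0.13, adjusted p = 0.506 in limma), and did not pass either.

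PU.1 binds DNA at a purine-rich core, commonly written GAGGAA, and many macrophage genes carry such a core close to their start. Because the markers moved together, their promoters were searched for it on both strands, in windows of 300 bases from 250 before the start of transcription to 50 after it (RefSeq, GRCm38.p6). Promoters were found for 27 of the 38 genes, 31 windows in all. The 6 letters GAGGAA occurred in 17 of the 31 windows (54.8%), belonging to 16 genes, and in 28.3% of all 32851 mouse promoters in the table. The longer GAGGAAGT, which contains the shorter word, occurred in 3 of 31 (9.68%) and in 3.2% of all. For comparison, TATAAA was found in 5 of 31 (16.1%) and in 13.6% of all. A match is a run of letters and no evidence of binding. Itgam and Mrc1 each hold 3 copies of the shorter word. The windows of the 3 genes with GAGGAAGT and of Itgam are shown, and that of Mrc1 is not. They run from 5′ to 3′ on the strand of the gene, with GAGGAA or its reverse complement TTCCTC in capitals.
C1qc, chr4:136892865-136893164 (minus strand): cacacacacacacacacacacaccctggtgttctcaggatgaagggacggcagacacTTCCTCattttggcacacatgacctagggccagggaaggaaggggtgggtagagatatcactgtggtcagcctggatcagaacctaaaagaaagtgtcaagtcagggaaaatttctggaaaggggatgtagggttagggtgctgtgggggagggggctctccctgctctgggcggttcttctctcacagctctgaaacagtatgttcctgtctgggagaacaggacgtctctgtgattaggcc
Cd53, chr3:106790100-106790399 (minus strand): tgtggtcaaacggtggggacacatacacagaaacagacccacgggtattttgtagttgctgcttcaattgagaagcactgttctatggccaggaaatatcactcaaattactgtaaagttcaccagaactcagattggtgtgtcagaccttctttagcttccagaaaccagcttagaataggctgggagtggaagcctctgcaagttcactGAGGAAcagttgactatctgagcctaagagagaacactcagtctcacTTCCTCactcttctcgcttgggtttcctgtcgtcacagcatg
Ctss, chr3:95526536-95526835 (plus strand): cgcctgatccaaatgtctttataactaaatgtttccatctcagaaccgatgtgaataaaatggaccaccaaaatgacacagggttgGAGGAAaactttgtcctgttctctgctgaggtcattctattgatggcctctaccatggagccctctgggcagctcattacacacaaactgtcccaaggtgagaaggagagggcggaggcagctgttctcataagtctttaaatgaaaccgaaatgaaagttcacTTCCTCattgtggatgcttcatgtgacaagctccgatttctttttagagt
Itgam, chr7:128062390-128062689 (plus strand): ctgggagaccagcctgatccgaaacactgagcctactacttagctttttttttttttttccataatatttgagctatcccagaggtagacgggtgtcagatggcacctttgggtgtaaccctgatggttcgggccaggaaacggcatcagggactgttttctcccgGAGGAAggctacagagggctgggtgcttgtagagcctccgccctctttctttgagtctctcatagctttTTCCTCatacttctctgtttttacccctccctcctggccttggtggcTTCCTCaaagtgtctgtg
In C1qc, Cd53 and Ctss the bases next to the capital TTCCTC extend it to the reverse complement of GAGGAAGT. The array values of these 4 genes follow with their functional groups.

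Surface markers of the mature cell were the next group. Adgre1 encodes F4/80, the standard identity marker of mouse tissue macrophages. It read 6.91, 7.43 and 7.53 in the S wild type and 7.99, 8.02 and 8.18 in S/S. In the L set it read 6.67, 7.61 and 8.62 in the L wild type and 6.17, 7.86 and 7.53 in L/L, a range over the 12 arrays of 5.49-fold. Again the S/S arrays lay above their wild type without overlap and L wild-type array 3 was the highest of all. Cd68, a glycoprotein of macrophage lysosomes, read 9.46, 9.15 and 9.33 in the S wild type and 10.63, 10.22 and 10.75 in S/S. In the L set Cd68 read 8.67, 9.79 and 11.27 in the L wild type and 8.18, 10.18 and 10.52 in L/L. Its 8.54-fold range over the arrays ran from L/L array 1 to L wild-type array 3. Ptprc encodes CD45, the phosphatase found on all nucleated blood cells. It read 6.21, 6.22 and 6.03 in the S wild type and 6.69, 6.54 and 6.26 in S/S, mostly near the floor. In the L set it read 6.03, 6.20 and 7.16 in the L wild type and 5.94, 6.79 and 6.42 in L/L, and it lay above the floor on 7 of the 12 arrays. The tetraspanin gene Cd53, another marker of white blood cells, read 6.85, 7.77 and 8.15 in the S wild type and 8.78, 8.90 and 8.93 in S/S. In the L set Cd53 read 7.11, 8.46 and 9.77 in the L wild type and 6.49, 8.93 and 8.57 in L/L. Its S wild type was the most uneven of all markers (SD 0.67), through the low value in array 1, the array that stood apart.

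Itgam and Cx3cr1 had the same highest and lowest arrays of the L set as most markers. Itgam encodes the alpha chain of the integrin Mac-1, which binds complement-coated particles. It read 6.55, 6.46 and 6.59 in the S wild type and 7.20, 7.29 and 7.33 in S/S. In the L set it read 6.19, 6.50 and 7.24 in the L wild type and 5.80, 6.51 and 6.43 in L/L, so wild-type array 3 stood among the S/S arrays. Another 3 probe sets that name Itgam together with the ribosomal gene Rpl35 read 11.87 to 12.53 and were not used. Cx3cr1, the fractalkine receptor of monocytes and tissue macrophages, read 8.43, 8.24 and 8.38 in the S wild type and 8.69, 8.69 and 8.70 in S/S. In the L set it read 7.74, 7.81 and 8.53 in the L wild type and 7.45, 7.86 and 7.79 in L/L, with L/L array 1 as the lowest of the study. The 3 S/S values of Cx3cr1 differed by an SD of only 0.0057. Mrc1, the mannose receptor, ran from 5.58 in L/L array 1 to 7.75 in L wild-type array 3 and was above the floor on 7 arrays. Cd14, the coreceptor for bacterial lipopolysaccharide, covered a narrower range, 6.15 to 7.47.

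Macrophages sense antibody and debris through receptors that signal by way of small adaptors with ITAM motifs, paired tyrosines that recruit the kinase SYK. The adaptor gene Tyrobp, encoding DAP12, read 8.02, 8.39 and 8.34 in the S wild type and 8.92, 8.97 and 9.27 in S/S. In the L set it read 8.07, 8.99 and 10.36 in the L wild type and 7.63, 9.55 and 9.46 in L/L. Its S/S arrays stood above their wild type, and both L groups spanned more than the whole S set did. Fcer1g encodes the common gamma chain of Fc receptors. It read 9.61, 9.40 and 9.38 in the S wild type and 10.69, 10.29 and 10.49 in S/S. In the L set Fcer1g read 8.75, 9.95 and 11.26 in the L wild type and 8.15, 10.30 and 10.39 in L/L, an 8.62-fold range with the same 2 end arrays as Cd68. Trem2, a lipid receptor that pairs with DAP12, ran from 7.55 to 9.61 and was 1 of the 6 markers whose S/S arrays overlapped their wild type. Among the receptors for IgG, Fcgr2b is the inhibitory one and Fcgr1 and Fcgr3 activate. Fcgr2b read 6.92, 6.59 and 6.82 in the S wild type and 7.69, 7.37 and 7.68 in S/S. In the L set it read 6.08, 6.67 and 7.68 in the L wild type and 5.90, 6.78 and 6.89 in L/L. Here L wild-type array 3, at 7.68, was level with the S/S arrays rather than above them. Fcgr3 ran from 6.80 to 8.70 over the 12 arrays, and Fcgr1 from 6.02 to 6.68, near the floor. The extracellular parts of Fcgr2b and Fcgr3 are closely similar in sequence, so that a share of signal common to both is possible.

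Complement genes were the next group. C1qa, C1qb and C1qc encode the chains of C1q, the starter of the classical complement pathway, which macrophages make themselves. C1qb read 10.25, 9.88 and 9.91 in the S wild type and 10.91, 10.57 and 10.96 in S/S. In the L set C1qb read 8.72, 10.01 and 11.25 in the L wild type and 8.46, 10.33 and 10.27 in L/L. C1qc, whose promoter is printed above, read 8.40, 8.45 and 8.85 in the S wild type and 9.54, 9.53 and 9.55 in S/S. The S/S arrays of C1qc were nearly equal (SD 0.012) and all above their wild type. In the L set C1qc read 7.85, 9.20 and 10.48 in the L wild type and 7.56, 9.36 and 9.40 in L/L. C1qa read 7.12, 7.46 and 7.34 in the S wild type and 7.58, 7.75 and 7.72 in S/S. In the L set it read 7.32, 7.89 and 9.35 in the L wild type and 7.02, 8.36 and 7.98 in L/L, where wild-type array 3 exceeded every other array of the study. C5ar1, the receptor for the complement fragment C5a, had its highest values in S/S. It read 7.31 to 7.39 in the S wild type, 7.61 to 8.46 in S/S, 6.02 to 7.38 in the L wild type and 5.82 to 7.26 in L/L.

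Genes for digestion and killing spanned wide ranges. Lyz2, lysozyme M, cuts bacterial cell walls and is a classic marker of the myeloid line. It read 10.73, 11.17 and 11.21 in the S wild type and 11.63, 11.71 and 11.79 in S/S. In the L set Lyz2 read 9.91, 11.55 and 12.48 in the L wild type and 9.31, 11.80 and 11.71 in L/L, which made a range of 3.17 on the log2 scale over the 12 arrays. Its near-identical neighbour Lyz1 may share signal with it. Mpeg1 encodes perforin-2, a pore-forming protein of phagocytes. It read 7.46, 7.68 and 7.81 in the S wild type and 8.69, 8.44 and 8.54 in S/S. In the L set Mpeg1 read 6.92, 7.84 and 9.56 in the L wild type and 6.23, 8.55 and 8.41 in L/L, a 10.1-fold range. Cybb encodes the catalytic subunit of the phagocyte oxidase. It read 6.98, 7.58 and 7.84 in the S wild type and 8.45, 8.55 and 8.40 in S/S, and in the L set 7.02, 7.90 and 9.52 in the L wild type and 6.65, 8.58 and 8.16 in L/L. Laptm5, a lysosomal membrane protein of blood cells, read 9.85, 9.73 and 9.91 in the S wild type and 10.24, 10.30 and 10.42 in S/S. In the L set it read 8.39, 9.63 and 11.05 in the L wild type and 8.08, 10.02 and 9.98 in L/L. Both markers had L wild-type array 3 on top. Ctss, a cysteine protease of antigen processing, read 6.99 to 7.24 in the S wild type and 7.49 to 8.01 in S/S, while in the L set it ran from 6.76 in L/L array 1 to 9.48 in wild-type array 3. Atp6v0d2, a proton pump subunit of osteoclasts and macrophages, read 5.10, 5.20 and 5.36 in the S wild type and 6.52, 6.16 and 6.09 in S/S. In the L set it read 5.12, 5.93 and 6.81 in the L wild type and 4.86, 6.72 and 6.37 in L/L, and it was above the floor on 4 arrays only. Msr1, the class A scavenger receptor, read 7.13, 7.11 and 7.34 in the S wild type and 8.10, 8.39 and 7.78 in S/S. In the L set it read 6.47, 7.35 and 8.06 in the L wild type and 6.50, 7.84 and 7.27 in L/L, with S/S array 2 as the highest of the study.

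Chemokines and the cytoskeleton completed the panel. Ccl3, a chemokine that attracts monocytes and T cells, had the widest range of all 38 genes, 10.6-fold. It read 8.36, 8.45 and 8.58 in the S wild type and 9.98, 9.66 and 9.93 in S/S. In the L set it read 7.22, 8.88 and 10.33 in the L wild type and 6.92, 9.59 and 9.50 in L/L. No other marker separated S/S from its wild type by as much. The neighbouring chemokine gene Ccl4 stayed between 6.08 and 6.78, close to the floor, and its highest value came from S wild-type array 1. Ccl9, made in quantity by mouse macrophages and osteoclasts, ran from 6.27 to 7.65. Lcp1 encodes L-plastin, which bundles actin in white blood cells. It read 7.86, 8.07 and 8.34 in the S wild type and 9.17, 9.04 and 9.03 in S/S. In the L set it read 7.22, 8.13 and 9.90 in the L wild type and 6.95, 8.64 and 8.34 in L/L, a 7.72-fold range. Coro1a, another actin regulator of white blood cells, covered 1.83-fold. The remaining members, Alox5ap of leukotriene synthesis, the cytidine deaminase gene Apobec1, the metalloprotease gene Adam8 and the surface proteins Cd52 and Cd84, had ranges of 4.27-, 2.74-, 4.11-, 3.99- and 2.88-fold.

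The comparison of S/S with its matched wild type asked whether the S allele goes with a different macrophage content. The difference in macrophage level was 0.66 (1.58-fold). Over the markers the fitted log2 difference had a median of 0.68, with 37 of 38 positive, while over all genes the median was −0.04. In 32 of 38 markers all 3 S/S arrays lay above all 3 wild-type arrays, against 5.49% of all genes in that direction, and none had all 3 below, against 6.29%. The 6 exceptions were Fcgr1, Cd14, Ccl4, Aif1, Trem2 and Coro1a. Without wild-type array 1, the array that stood apart, the count was 35 of 38, against 11.2% of all genes. The markers were chosen with earlier results known and moved together, so these counts are not 38 separate observations.

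No marker passed the test for S/S at an adjusted p under 0.05 (limma, 12 arrays in 1 model, Benjamini-Hochberg over 19938 genes), against 0.12% of all genes, which is 24 genes. At an unadjusted p under 0.05 there were 4 markers, all higher in S/S, against 5.21% of all genes in that direction. These were Itgam, with a difference of 0.74 (SE 0.23, 1.67-fold), Msr1, with 0.90 (SE 0.36, 1.87-fold), Fcgr2b, with 0.80 (SE 0.33, 1.75-fold), and Atp6v0d2, with 1.04 (SE 0.43, 2.05-fold). Their adjusted p-values in the limma fit were 0.315, 0.430, 0.448 and 0.453. Among the arrays of the S set, Atp6v0d2 lay above the floor only on S/S array 1. The largest differences had larger errors. Ccl3 differed by 1.39 (SE 0.70, 2.63-fold), Cd53 by 1.28 (SE 0.64, 2.42-fold) and Cd68 by 1.22 (SE 0.59, 2.33-fold), with adjusted p-values of 0.516, 0.516 and 0.512 in the same fit. Adgre1 differed by 0.77 (SE 0.44, 1.7-fold) and Csf1r by 0.68 (SE 0.44, 1.6-fold) (limma, adjusted p = 0.546 and 0.575).

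The error in that model is shared by the 4 groups, and most markers were uneven in the L set. The SE of the S/S difference had a median of 0.41 over the markers and 0.13 over all genes. When the 6 arrays of the S set were fitted alone, 5 markers passed (limma, Benjamini-Hochberg over 19938 genes), against 0.221% of all genes, and all 5 were higher in S/S. Ccl3 rose by 1.39 (SE 0.15, adjusted p = 0.0149) and Cd68 by 1.22 (SE 0.17, adjusted p = 0.0387). Fcer1g rose by 1.03 (SE 0.15, adjusted p = 0.0437), Atp6v0d2 by 1.04 (SE 0.16, adjusted p = 0.0452) and Lcp1 by 0.99 (SE 0.16, adjusted p = 0.0497) in the same limma fit. Atp6v0d2 lay below the floor on all arrays of this set but S/S array 1. The count of passing markers depended on single arrays. Still with the S set alone, it was 12 without wild-type array 1, against 0.587% of all genes, and 0 without wild-type array 2, S/S array 1 or S/S array 3. Leaving out wild-type array 3, or else S/S array 2, gave 1, and Ccl3 was that gene in both fits. Over all fits of S/S with a single array left out, of the S set alone or of all groups, 2 to 117 of all 19938 genes passed. The share of all genes in each of these fits is not given here, so the counts of 0 and 1 are no result about the markers.

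In L/L the difference from the matched wild type had the opposite sign. The macrophage level differed by −0.22, well inside the SDs of 0.92 and 0.76 of the groups compared. The median difference over the markers was −0.27, with 33 of 38 negative, against a median of 0.02 over all genes. No marker had 3 L/L arrays all above their wild type (9.71% of all genes did) or all below it (5.1%). None passed in L/L (limma, adjusted p = 1 for all 38), against 0.0401% of all genes, and 0 had an unadjusted p under 0.05, against 3.27%. The markers with the smallest p were Cx3cr1 at −0.33 (SE 0.18), Itgam at −0.40 (SE 0.23), Adgre1 at −0.45 (SE 0.44) and C1qa at −0.40 (SE 0.41). With the L set fitted alone 0 markers passed, against 0.0251% of all genes.

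The sign of the L/L difference rested on single arrays. Without wild-type array 3 the difference in macrophage level was 0.27, and without L/L array 1 it was 0.22, both with L/L above wild type. Without L wild-type array 1 it was −0.64, and without L/L array 2 or 3 it was −0.48 and −0.39. Without both male arrays it was −0.21. The L set therefore gave no stable direction for the macrophage level at this number of arrays.

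**Figure D4:**
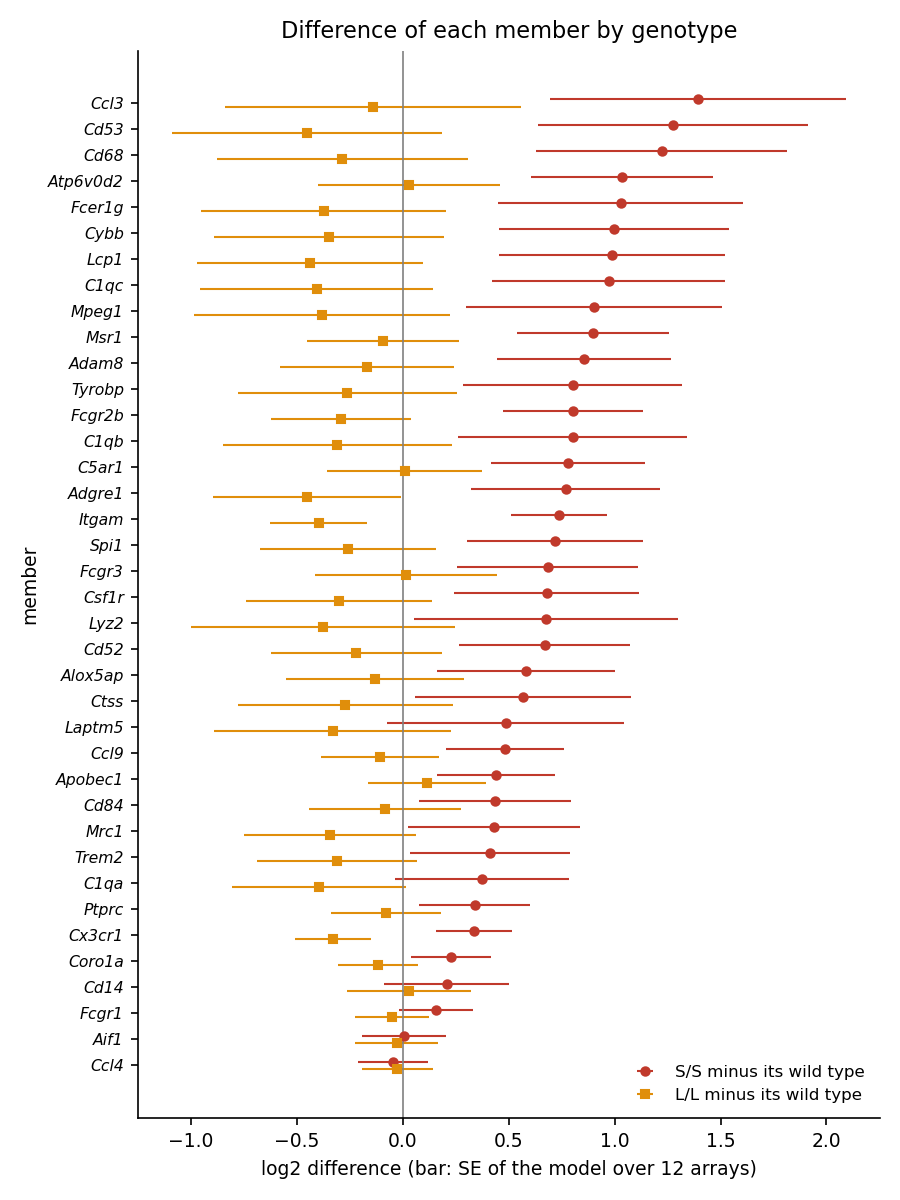
Log2 difference between mutant and matched wild type (horizontal axis) for each macrophage marker (rows, ordered by the S/S difference), S/S as circles and L/L as squares, with the SE of the model over 12 arrays as bars. The S/S differences run from −0.04 for Ccl4 to 1.39 for Ccl3 and are positive for 37 genes, while 33 of the L/L differences are negative, and 0 of either passed.

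Whether the 2 mutants differed from their wild types by different amounts was tested directly. The S/S difference minus the L/L difference had a median of 0.93 over the markers, and 0 of 38 passed (limma, lowest adjusted p = 0.59), against 0.015% of all genes. With an unadjusted p under 0.05 stood 3 markers, all positive, against 2.71% of all genes in that direction. Itgam led them, with 1.13 (SE 0.32, adjusted p = 0.59 in limma). The median of this difference rested on single arrays of the L set, being 0.41 without L wild-type array 3 and 0.46 without L/L array 1. The mean of both mutant differences, which asks for a shared departure from wild type, had a median of 0.23 over the markers. It passed for 0 markers (limma, lowest adjusted p = 0.984), against 0.0853% of all genes, and 0 had an unadjusted p under 0.05, against 5.56%. Its median was 0.01 without L wild-type array 1 and 0.48 without L wild-type array 3. Leaving out L/L array 1, 2 or 3 gave 0.42, 0.09 and 0.13.

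Both wild types carry the same Rb1 genotype, so the difference between them shows how far the sets differ without a mutation. The macrophage level of the L wild type exceeded that of the S wild type by 0.28, and the median over the markers was 0.31 with 28 of 38 positive. This is less than a single SD of the L wild type, 0.92. None of the markers passed (limma, lowest adjusted p = 0.216), although 8.71% of all genes did, and 0 had an unadjusted p under 0.05, against 23.7% of all genes. No marker separated the wild types without overlap, against 11.5% of all genes higher and 16.1% lower in the L wild type. Without L wild-type array 1 the median was 0.73. Without L wild-type array 3 it was −0.23, and Cx3cr1 passed, lower by 0.58 (limma, adjusted p = 0.0278), against 5.51% of all genes. Without both male arrays the markers Atp6v0d2, at 1.15, and Tyrobp, at 1.42, passed (limma, adjusted p = 0.0412 and 0.047), against 1.52% of all genes. Of the wild-type arrays, Atp6v0d2 lay above the floor only on L wild-type array 3.

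Dividing the sum of squares of each marker over the 12 arrays gave a description of what went with its variation. Differences between arrays of the same group made up a median of 75.9% for the markers and 64.1% for all genes. Genotype within a set made up 16.8% against 11.9%, and the difference between sets 4.83% against 14.6%. The share of the sets was 12.8% without L wild-type array 3, and leaving out S/S array 1 or 3 made it 2.74% or 3.07%. That of genotype was 31.7% without L wild-type array 1 and 25.2% without L wild-type array 3. The sets differed sharply when taken alone. In the S set genotype went with 82.0% of the variation of the median marker, against 13.8% for all genes, and with 97.7% of that of the macrophage level. In the L set it went with 2.54%, against 15.2% for all genes, and with 2.45% of that of the level. These shares rest on 3 arrays per group and were not tested.

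Genes of related pathways were read beside the markers. The 5 members that also stood on these lists, Spi1, Csf1r, Cybb, C5ar1 and Atp6v0d2, were left out of the counts. Complement and innate receptors ran with the macrophage level. In S/S 0 of 18 passed in either direction (limma), with a median difference of 0.52 and 14 positive, and in L/L 0 of 18 passed, with a median of −0.14 and all 18 negative. The receptor for the complement fragment C3a, C3ar1, read 8.65, 8.81 and 9.06 in the S wild type and 10.10, 9.73 and 9.74 in S/S. In the L set C3ar1 read 7.55, 9.18 and 10.51 in the L wild type and 7.21, 9.47 and 9.40 in L/L, with the same highest and lowest arrays as most markers. Tlr7 and Tlr13, endosomal sensors of RNA, covered 7.43- and 9.71-fold, and Cd180, a relative of the lipopolysaccharide receptor, 7.24-fold. The Fc receptor and ITAM signalling list had 0 of 19 passing in either mutant, with medians of 0.21 in S/S and −0.08 in L/L. Its widest gene was the inhibitory receptor Lilrb4a, at 5.87-fold. Of the phagocyte oxidase and Rac2 genes besides Cybb 0 of 4 passed in either mutant, and Rac2, the GTPase that activates the enzyme, ran from 7.84 to 9.20.

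Other lists connected with macrophages moved less. Myeloid transcription factors besides Spi1 had 0 of 13 passing and medians of 0.06 in S/S and −0.06 in L/L. Their widest genes were Runx1, Tfec, Batf3 and Maf, with r of 0.21, 0.83, −0.33 and 0.60 with the macrophage level over 12 arrays. Among colony-stimulating factor genes besides Csf1r 0 of 10 passed, with medians of −0.13 and 0.03. For the widest of them, Csf2ra, Csf2rb, Csf3 and Flt3, r with the level was 0.32, 0.80, −0.25 and −0.11. Lysosomal and osteoclast genes had 0 of 15 passing, with medians of 0.06 and −0.02, and held Gpnmb, a lysosomal glycoprotein whose reading went from 10.46 to 11.84 in step with the markers. The other widest genes of this list did not follow them closely, with r of 0.21 for Mmp9, 0.29 for Nfatc1 and −0.01 for Acp5. Cytokines and chemokines had 0 of 17 passing, with medians of −0.01 and 0.00 beside 0.50 in S/S for Ccl2, the monocyte attractant. Their widest genes, Ccl2, Cxcl10, Ccl7 and Il1rn, had r of 0.61, 0.29, 0.73 and 0.04 with the level. Markers of resident macrophage subtypes had 0 of 17 passing, with medians of −0.07 and −0.04, and the scavenger receptor Stab1 was the widest of them at 4.45-fold. Stab1 followed the macrophage level (r = 0.97), whereas the next widest, Marco, Folr2 and Sall1, had r of −0.42, 0.57 and −0.25. In S/S Marco differed by −0.39 and Sall1 by −0.43, against 0.56 for Stab1 and 0.16 for Folr2. Monocyte and dendritic cell markers had 0 of 15 passing, with medians of −0.15 and 0.03, and only 2 of the 15 lay above the floor on all arrays. The widest of them, Cd80, differed by 0.82 in S/S and 0.59 in L/L (limma, adjusted p = 0.102 and 0.633). Its r with the macrophage level was 0.08. All of these counts come from the limma fit over 12 arrays.

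Markers of other blood cells gave little reading, apart from some erythroid and megakaryocyte genes. Only 1 of 14 neutrophil markers, 1 of 10 mast cell markers and 2 of 14 lymphocyte markers lay above the floor on all arrays, and 0 of these lists' genes passed in either mutant (limma). The median differences in S/S were −0.19, −0.05 and −0.15. All 3 lists were highest in S wild-type array 1, the array that stood apart, at levels of 0.47, 0.37 and 0.44 over their own mean, and elsewhere ran between −0.17 and 0.07. Erythroid and megakaryocyte markers had 0 of 11 passing in either mutant and the same peak, 0.42. Of these 11, 4 lay above the floor on all arrays and 7 on at least 1. The widest was Ppbp, with a range of 3.05 on the log2 scale and an r of 0.01 with the macrophage level. Within the lymphocyte list Il7r, the interleukin 7 receptor, was unlike the others, since it correlated with the macrophage level (r = 0.93 over 12 arrays).

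Markers of endothelium and fibroblasts varied less between arrays than the macrophage markers. Endothelial markers had 0 of 12 passing in either mutant (limma), with list levels between −0.13 and 0.14. The 3 S/S levels (0.01 to 0.10) lay above the 3 of the S wild type (−0.13 to −0.06). Gene by gene, however, the median difference in S/S was −0.07, with 4 positive and 8 negative, and Emcn differed most, by 1.62. In L/L the median was 0.07. Within the L set the highest level was that of L/L array 1 and the lowest that of wild-type array 3. Emcn, a sialomucin of capillary and venous endothelium, read 6.70, 6.64 and 7.01 in the S wild type and 8.50, 8.21 and 8.48 in S/S. In the L set Emcn read 9.06, 8.19 and 6.98 in the L wild type and 9.05, 8.20 and 7.82 in L/L, so that wild-type array 3, the richest in macrophage RNA, was the lowest L array for it. Fibroblast markers had 0 of 17 passing, with medians of 0.04 in S/S and −0.12 in L/L and list levels between −0.15 and 0.21. In the L set the fibroblast list had the same highest and lowest arrays as the macrophage level, wild-type array 3 at 0.21 and L/L array 1 at −0.08, and its part in the macrophage result was not tested. In the S set its S/S arrays (−0.14 to −0.02) lay within the range of the wild type (−0.15 to 0.10). Interferon-stimulated genes, which macrophages and fibroblasts both express, had 0 of 17 passing, with medians of 0.36 in S/S and 0.12 in L/L. As with the macrophage level, their list level in S/S (0.05 to 0.20) lay above that of the S wild type (−0.27 to −0.20). The male arrays were again the lowest of the L set, at −0.35 in wild-type array 1 and −0.25 in L/L array 1. At the top the order differed from that of the macrophage markers, with 0.60 in L/L array 2 and 0.06 in L wild-type array 3.

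**Figure D5:**
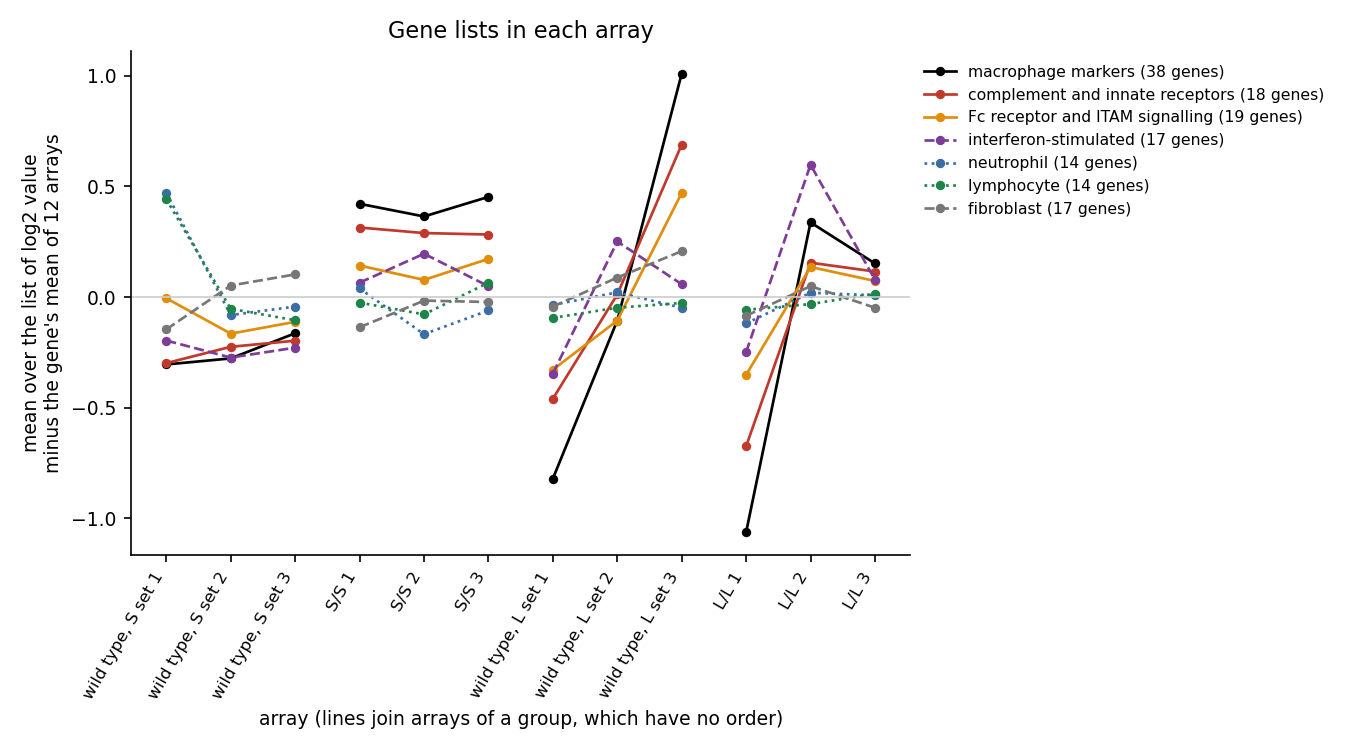
Mean over each gene list of the log2 value minus the gene's mean of 12 arrays (vertical axis) in each array (horizontal axis, lines join arrays of a group). Macrophage markers, complement and innate receptors and Fc receptor and ITAM genes all peak in L wild-type array 3, at 1.01, 0.69 and 0.47, whereas interferon-stimulated genes peak in L/L array 2 at 0.60 and neutrophil and lymphocyte markers in S wild-type array 1.

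Among all other genes of the array, the 20 whose values followed the macrophage level most closely had Pearson r of 0.95 to 0.98 over the 12 arrays, against a median of −0.03 for all genes. Without the 2 arrays of most extreme level r was 0.87 to 0.98 over 10 arrays. They were C3ar1, Cd33, Tlr7, Ms4a6d, Nckap1l, Stab1, Fyb, Igsf6, Itgb2, Pld4, Cyth4, Ms4a6c, Tlr13, Srgn, Clec12a, Inpp5d, Cd72, Gpnmb, Dock2 and Rac2, and 8 of the 20 stood in the lists above. Itgb2 encodes the beta chain that pairs with the product of Itgam, and ran from 6.51 to 7.75. Cd33, a sialic acid receptor of myeloid cells, read 7.06, 7.37 and 7.65 in the S wild type and 8.15, 8.40 and 8.26 in S/S. In the L set Cd33 read 6.67, 7.49 and 8.87 in the L wild type and 6.23, 7.83 and 7.70 in L/L. The order of its arrays was close to that of the macrophage level, with L wild-type array 3 at the top and L/L array 1 at the bottom. Ms4a6d, a membrane protein of macrophages, had a range of 8.82-fold.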

How the data were processed

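Total RNA from 12 samples was hybridised to 1 array each. The values deposited by the authors are log2 RMA values (corrected for background, normalized between arrays and summarised by probe set), made with Partek per the design text of the series. The version of Partek is not stated, and that the scale is log2 was judged from the range of the values. Of 35556 probe sets, 21789 carry a single gene symbol in the supplied annotation, 1621 several and 12146 none. For each of 19938 genes the probe set of highest mean was used, and each of the 38 members had 1 such probe set.

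The 4 group means were fitted in 1 linear model over 12 arrays with limma 3.58.1 in R 4.3.3 (8 residual and 5.19 prior degrees of freedom). Two-sided p-values were adjusted by Benjamini-Hochberg over 19938 genes for each contrast, with 0.05 as the threshold for passing. No dim genes were filtered out. On simulated data for the S/S contrast over 19938 genes, the fit recovered 87 of 100 genes changed by 1 on the log2 scale and 99 of 100 changed by 2, with 12 false calls. The changed genes were drawn from all genes, each with the same simulated spread in every group. Marker SEs were larger (median 0.41 against 0.13 for all genes), so recovery of a change in the markers was not measured. Python 3.11.15 and pandas 2.3.3 were used for the other steps. Precision is limited by having 3 arrays per group.

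The members and the 16 gene lists were chosen with earlier results of these data known. The rule for names gave values in every array for Adgre1, Csf1r, Cd68, Ptprc, Itgam and Spi1, for the 12 members of largest pooled SD within groups, for members passing a contrast, and for the 4 members of smallest p in each mutant. Outside the members, it covered the 4 genes of widest range in each list, of which only some are given in the text. It also covered the list genes passing, the 20 genes closest to the macrophage level, and Rb1. Csf1, Il34, Eif2s3y, Xist and the Rpl35 probe sets were added after their values were seen. The alternatives were other normalizations and filters, array weights, each set alone, the replicate number as a block, and leaving out arrays.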

Additional observations from a re-analysis of the deposited data

Results flagged for a closer look

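Itgam differed between the mutants in the direction of its departure from wild type: all 3 S/S arrays lay above the mean of the S wild type and all 3 L/L arrays below the mean of the L wild type. The S/S difference minus the L/L difference was 1.13 (SE 0.32), and as an interaction in limma it did not pass (adjusted p = 0.59). Cx3cr1 showed the same arrangement, with a difference between effects of 0.66 (SE 0.25, adjusted p = 0.714 in limma), which did not pass either. The arrangement in the L set rested on L wild-type array 3: without it, 1 of 3 L/L arrays lay below the wild-type mean for each gene. The L/L difference was then −0.10 for Itgam and −0.08 for Cx3cr1, against −0.40 and −0.33 with all arrays, and the difference between effects 0.84 and 0.41 (limma, adjusted p = 0.425 and 0.73). How many of all genes showed the same arrangement was not counted, so it is no result about the markers. Groups of 3 arrays were not tested for single outlying arrays.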

How the results depend on the processing

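Across 122 alternative fits of the 5 contrasts, 116 called 0 members and 6 called any. For S/S, 5 members passed with each set fitted alone, and leaving out single arrays gave 0 to 12 members passing, the upper value with the S set alone (a fit added after the data were seen). The S/S median difference was 0.62 to 0.76 with single arrays left out, and 0.61 without both S arrays numbered 1. For the wild types, 0 to 1 members passed with single arrays left out, and 2 without both arrays numbered 1 of the L set. Genotype within a set made up 13.9 to 31.7% of the variation of the median marker with single arrays left out, highest without L wild-type array 1, and differences within groups 58.3 to 80.6%, lowest without L wild-type array 3. The L/L median difference ran from −0.66 to 0.29 and turned positive without L wild-type array 3 or L/L array 1. Counts over all genes moved more: 24 genes in S/S against 2 to 415 in the alternatives, 8 against 2 to 336 in L/L, 3 against 3 to 293 for the difference of effects, 17 against 5 to 384 for their mean and 1736 against 304 to 6520 for the wild types, with array weights giving the highest of each. Replicate numbers were not taken as pairs: same-numbered deviations over all genes correlated at 0.39, 0.47 and −0.12 in the S set and 0.60, 0.06 and 0.36 in the L set, and not every sample correlated best with its own number. Over the 38 members they correlated at 0.43, 0.35 and 0.18 in the S set and 0.94, 0.42 and 0.76 in the L set, where both arrays numbered 1 are male. With the replicate block 0 members passed in S/S (lowest adjusted p = 0.0521 in limma), the count over all genes being 37, and 5 in L/L. The cause of these changes was not tested.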

Other observations

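Of 219 genes on the other lists, 13 (5.94%) passed between the 2 wild types, which carry the same Rb1 genotype (limma over 12 arrays, Benjamini-Hochberg). This share is below the 8.71% of all genes that passed, so it is no result about these lists, and the genes are given as values. Lower in the L wild type were Runx1, a transcription factor of blood and connective tissue, by −0.91 (adjusted p = 0.00239), and Nfatc1, the master regulator of osteoclasts, by −0.76 (adjusted p = 0.0032). The collagenase gene Mmp9 differed by −1.27 (adjusted p = 0.00115), the chemokine gene Ppbp by −1.38 (adjusted p = 0.0108) and Cxcl10, an interferon-induced chemokine, by −0.93 (adjusted p = 0.00544). Il1rn, the interleukin 1 receptor antagonist, differed by −0.51 (adjusted p = 0.0372). Higher in the L wild type were Cyba, the small subunit of the phagocyte oxidase, by 0.59 (adjusted p = 0.00871), and Tlr4, the lipopolysaccharide receptor, by 0.65 (adjusted p = 0.0379). Cyba and Tlr4 showed little of the spread of the markers within the L wild type: Cyba read 11.37, 11.58 and 11.67 there and Tlr4 7.30, 7.15 and 7.13.

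Among interferon-stimulated genes Mx2 (0.65) and Bst2 (0.86) were higher in the L wild type (adjusted p = 0.044 and 0.0438 in limma). Of the endothelial markers Tek, the angiopoietin receptor, was higher by 0.58 (adjusted p = 0.0134). Of the fibroblast markers Dcn, a matrix proteoglycan, was higher by 0.35 and Thy1, a surface glycoprotein, differed by −0.49 (adjusted p = 0.0452 and 0.0201 in limma).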
